A study of Mus musculus with 4 samples.

Results

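The Tbx20 locus on chromosome 9 held 16 of the 4012 peaks at which GFP-tagged Tbx20 was called as bound in the adult mouse heart. The members are all peaks of the authors' list whose midpoint lies on chromosome 9 between 24400000 and 24800000 of the mm9 genome, a window of 400 kb around the Tbx20 gene. Chromosome 9 held 234 peaks in all, so the other 218 serve for comparison. The window was selected on the measured number of peaks in it, known to be high from earlier results of these data, so their number, spacing, widths and scores are given as a description, with no test.

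Tbx20 is a T-box transcription factor, a DNA-binding protein of the family that also holds Tbx1 and Tbx5. It is needed for the growth and patterning of the embryonic heart, and it remains in heart muscle cells of the adult, where its loss leads to heart failure. Genes of this kind often have several regulatory regions spread over the flanking DNA, and a transcription factor can bind at its own gene. T-box proteins recognise a short DNA word whose core reads GGTGTGA.

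In the single immunoprecipitate, chromatin came from whole hearts of CD1 mice, 2 months old, and was pulled down with a goat antibody to GFP. The design names whole heart input as the control. The labels list 3 CD1 inputs with no antibody, 2 of them of embryonic age E11.5 and 1 of E9.5, so no input is of the age of the immunoprecipitated hearts. The labels do not say how the fusion was brought into the mice, whether it replaced native Tbx20 or was added to it, in how many copies, or how many hearts were pooled. With 1 immunoprecipitate and no replicate, variation between animals could not be measured for any value. Depth of sequencing and input signal at the locus are unknown here, and the number of copies of the locus in these mice was not tested.

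The gene lies near 24.52 to 24.58 Mb on mm9, a position known here only to about 10 kb, because the gene table at hand is on another build. RefSeq's GRCm38.p6 tables place Tbx20 on the minus strand, so its 5′ end is the end with the higher coordinate. In the order of that table, Cypt4, Dpy19l2 and Dpy19l1 are the protein-coding genes on the 3′ side, and Herpud2, Septin7 and Eepd1 follow on the 5′ side. Cypt4 and Dpy19l2 are known for roles in sperm, Herpud2 belongs to a family of endoplasmic reticulum proteins and Septin7 is a cytoskeletal GTPase. Between Tbx20 and Herpud2 the table lists 3 long noncoding RNA genes (Gm29824, Gm40509 and E130101E03Rik) and 2 pseudogenes, and no protein-coding gene. No peak was assigned to any of these neighbours.

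The widest peak of the locus lies at the approximate 5′ end of Tbx20. The 250 bases before the RefSeq transcription start are therefore shown, read on the gene's strand from 5′ to 3′, on GRCm38.p6 at chr9:24774304-24774553, minus strand. These coordinates cannot be set beside the mm9 peak positions, and whether the peak covers these bases was not determined. Capitals mark CG dinucleotides.
Tbx20 promoter: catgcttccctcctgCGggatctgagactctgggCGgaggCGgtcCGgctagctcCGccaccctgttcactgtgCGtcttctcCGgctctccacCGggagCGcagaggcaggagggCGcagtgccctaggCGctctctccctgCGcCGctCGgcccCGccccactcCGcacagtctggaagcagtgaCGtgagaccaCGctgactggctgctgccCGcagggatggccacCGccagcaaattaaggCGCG

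This stretch held 22 CG dinucleotides, against a median of 6 over the 32851 promoter entries of the same length in the table, and its GC content was 68.8%, against a median of 52.4%. The T-box core GGTGTGA, its shorter form GGTGTG and the still shorter GGTGT, each nested in the one before, were searched on both strands. None of these words occurred in the stretch. Over all entries, 3.33% held the first, 16.3% the second and 36.2% the third. The absence says only that these letters are not in this window. Sequence under the peaks themselves was not used here.

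The 16 peaks fell on both sides of the gene, but unevenly. The window itself reaches farther beyond the 5′ end of the gene than beyond its 3′ end. By midpoint, 1 peak lay beyond the approximate 3′ end, 2 lay within the gene, 1 lay at the 5′ end to within 5 kb, and 12 lay beyond the 5′ end. Since the gene's position is known to about 10 kb, the placement of peaks near either end may change with an mm9 annotation. Each peak is given with its deposited position, in which starts may be counted from 0, and with the authors' score, which their note describes as a normalized number of reads and takes from the field that QuEST names ef. That name commonly stands for an enrichment over background, and whether the score is a read number or an enrichment was not settled here. The score ranks peaks within this list only.

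Beyond the 3′ end, the peak from 24511738 to 24511869 was 131 bp wide and had a score of 12.3. It was the narrowest of the 16. No other peak lay below it for 2.11 Mb, so the locus stood at the border of a long stretch without peaks.

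Within the gene, the peak from 24531972 to 24532663 was 691 bp wide with a score of 15.8. It was the third widest of the 234 peaks of chromosome 9. The peak from 24545316 to 24545530 was 214 bp wide and reached a score of 32.5. The narrower of these peaks thus had the higher score, and their midpoints were 13.1 kb apart.

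At the 5′ end, the peak from 24578444 to 24579346 was 902 bp wide, the widest on chromosome 9, where the widest peak outside the window measured 759 bp. Its score was 14.6, above that of only 36.2% of the other peaks of the chromosome. It was therefore the broadest peak of the region without being among the highest. A pair of peaks followed upstream. The first, from 24586790 to 24587181, was 391 bp wide with a score of 18.5, and the second, from 24588531 to 24588780, was 249 bp wide with a score of 14.3. Their midpoints were 1.67 kb apart, the closest spacing of the locus, and together with the peak at the 5′ end they covered a stretch of 10.3 kb with scores of 14.3 to 18.5.

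Farther upstream came 2 single peaks. That from 24617059 to 24617394 was 335 bp wide with a score of 12.3, some 37.2 kb from the approximate 5′ end. That from 24639792 to 24640306 was 514 bp wide with a score of 31.2, at 60.0 kb. The second had a score above the median of the rest of the chromosome, the first below it.

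The largest group of peaks at most 20 kb apart held 6 peaks within 30.0 kb, from 24664237 to 24694232, about 84.4 to 114 kb from the approximate 5′ end. It opened with a pair 1.76 kb apart, 24664237 to 24664540 and 24666068 to 24666230, which had nearly equal scores of 41.2 and 41.4 but widths of 303 and 162 bp. Beside this pair lay the peaks from 24671727 to 24672097, with a score of 10.2, and from 24678728 to 24679019, with a score of 5.22, the lowest of the locus. The peak from 24683564 to 24683872 rose again to 36.3, and the last, from 24694018 to 24694232, had a score of 8.76. High and low scores thus lay side by side in this group, with neighbouring midpoints 1.76 to 10.4 kb apart.

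After a gap of 67.1 kb, a last pair lay near the upper border of the window. The peak from 24761032 to 24761322 had a score of 20.3 and a width of 290 bp. The peak from 24778672 to 24779020 was 348 bp wide and had a score of 70.8, the highest of the 16 and the 14th of the 234 on chromosome 9. The highest-scoring peak was thus the one farthest from Tbx20, at about 199 kb from the approximate 5′ end, and on which gene or genes it bears was not tested.

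**Figure D1:**
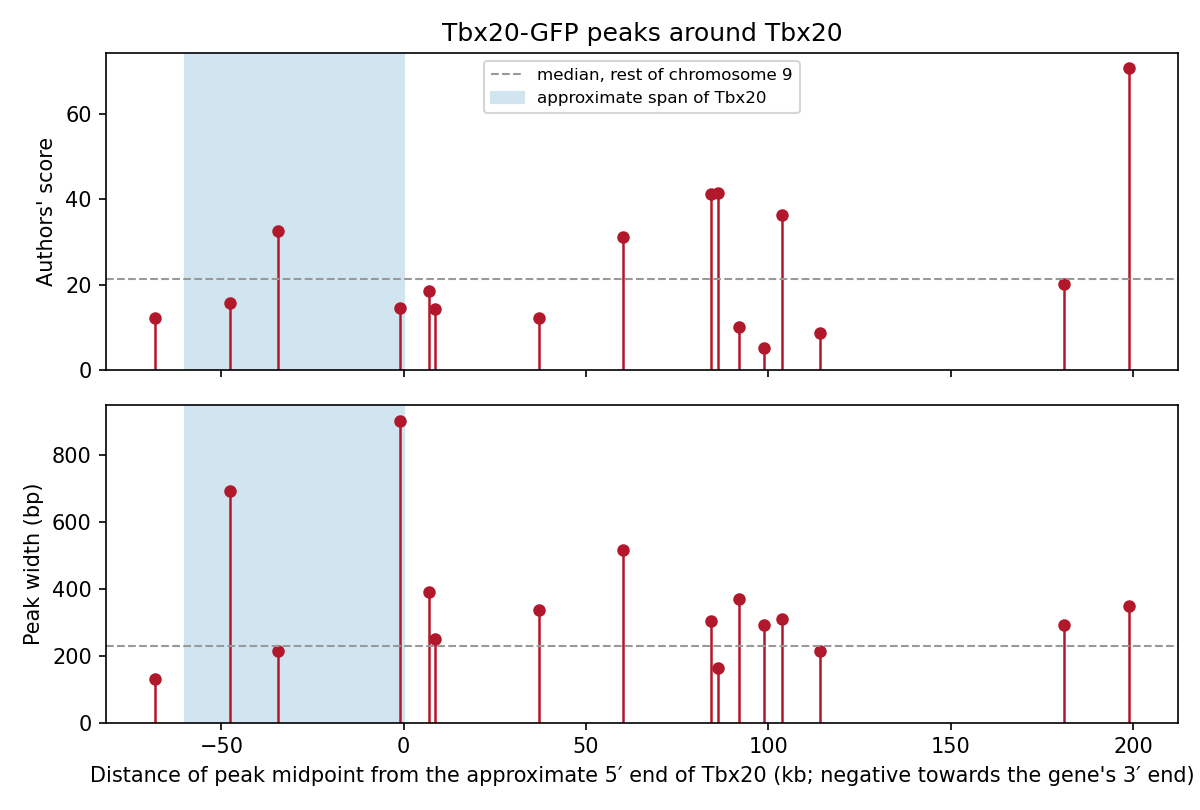
Authors' score (upper panel) and width in bp (lower panel) of the 16 peaks, by distance in kb of the midpoint from the approximate 5′ end of Tbx20, with the approximate gene shaded and the median of the other 218 peaks of chromosome 9 dashed (21.3 for score, 229.5 bp for width). The widest peak (902 bp) stands at the 5′ end, and the highest score (70.8) about 199 kb upstream.

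The borders of the window are round numbers. Below the lower border the nearest peaks lay 1998 kb away (22401760 to 22401931, score 31.1) and 2267 kb away (22132286 to 22132881, score 19.0). Above the upper border the nearest peak, from 24820445 to 24820576 with a score of 12.2, lay only 20.5 kb outside and 41.7 kb from the last member. The next, from 24954709 to 24954954 with a score of 14.9, lay 155 kb outside.

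Peaks were far denser at the locus than on the rest of its chromosome. The window was chosen for its high number of peaks, so the values below are a description only. The locus held 40.0 peaks per Mb, against 1.84 per Mb over the other 118.7 Mb between the first and last peak of chromosome 9. The ratio was 21.8. Thus 6.84% of the peaks of the chromosome lay in 0.336% of this length. When the chromosome was tiled from its first peak into windows of 400 kb, 165 of the 296 windows that did not touch the locus were empty, the median was 0 peaks and the highest count was 5. The 216 windows of that length that were centred on a peak of the chromosome and did not touch the locus also reached at most 5. Across the autosomes, 1 of 5948 tiled windows outside the locus held as many peaks as the locus or more. It lay on chromosome 2 and held 29.

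**Figure D2:**
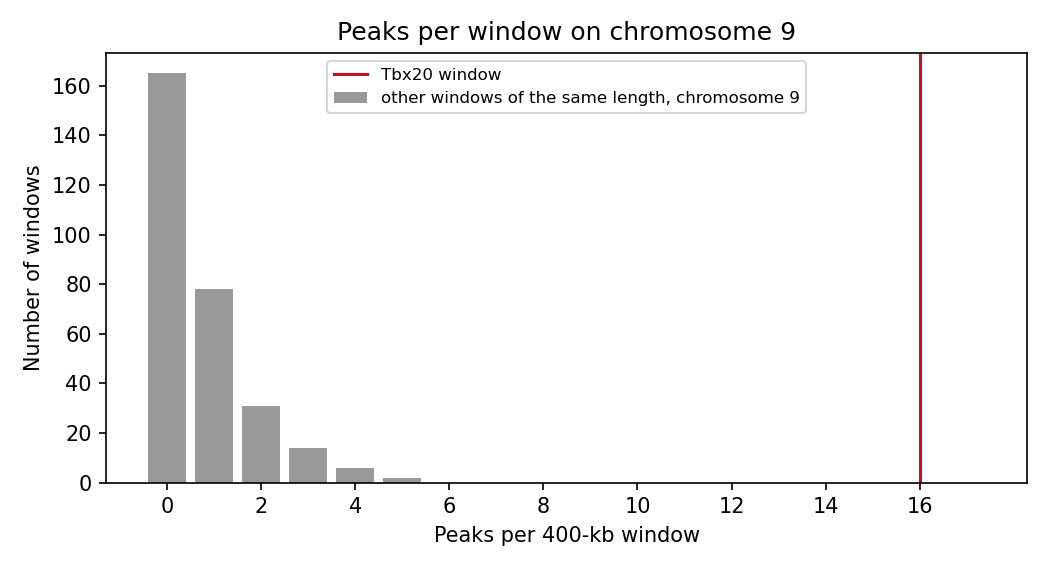
Number of peaks per 400-kb window on chromosome 9 (horizontal axis) against the number of windows (vertical axis), for the 296 tiled windows that do not touch the locus. The windows hold 0 to 5 peaks, and the line marks the 16 of the Tbx20 window.

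Spacing gave the same picture by distance. Of the 16 peaks, all had another peak within 50 kb, against 27.1% of the other peaks of the chromosome, 8 had one within 10 kb, against 12.4%, and 4 had one within 2 kb, against 3.67%. The nearest other peak was at a median of 9.25 kb in the locus and of 107 kb on the rest of chromosome 9. These values follow from the choice of a dense window. Linking neighbours with no more than 50 kb between midpoints put 14 of the 16 into 1 run of 182 kb, in which neighbours were 1.67 to 33.5 kb apart with a median of 10.4 kb. No peaks of the locus lay within 500 bp of each other, so none of its number came from peaks that close.

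Most peaks of the locus were wider than the median of the others on the chromosome. Their median width was 305.5 bp (interquartile range 240 to 375 bp), against 229.5 bp (180 to 302 bp) for the other 218, a ratio of 1.33. Of the 16, 12 were wider than the median of the rest and 9 were wider than its upper quartile of 302 bp. A width of at least 500 bp was found at 3 of the 16 and at 10 of the 218. Median widths were also high in the runs of peaks on chromosomes 2 and 14 described below, at 602 and 328 bp. Greater width was thus not particular to this locus. Because of both their number and their width, the 16 peaks made up 9.14% of all bases covered by peaks on chromosome 9.

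Scores of the locus were not raised in the same way. The 16 scores ran from 5.22 to 70.8, a 13.6-fold range, with a median of 17.1 (interquartile range 12.3 to 33.4), against a median of 21.3 (11.4 to 34.6) on the rest of the chromosome. There were 6 peaks above that median and 10 below it, with 4 above the upper quartile and 3 below the lower one. Over the whole list of 4012 peaks the median was 22.7, and 10 of the 16 lay below it. Many peaks of ordinary score, rather than a few of high score, therefore made up the locus.

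**Figure D3:**
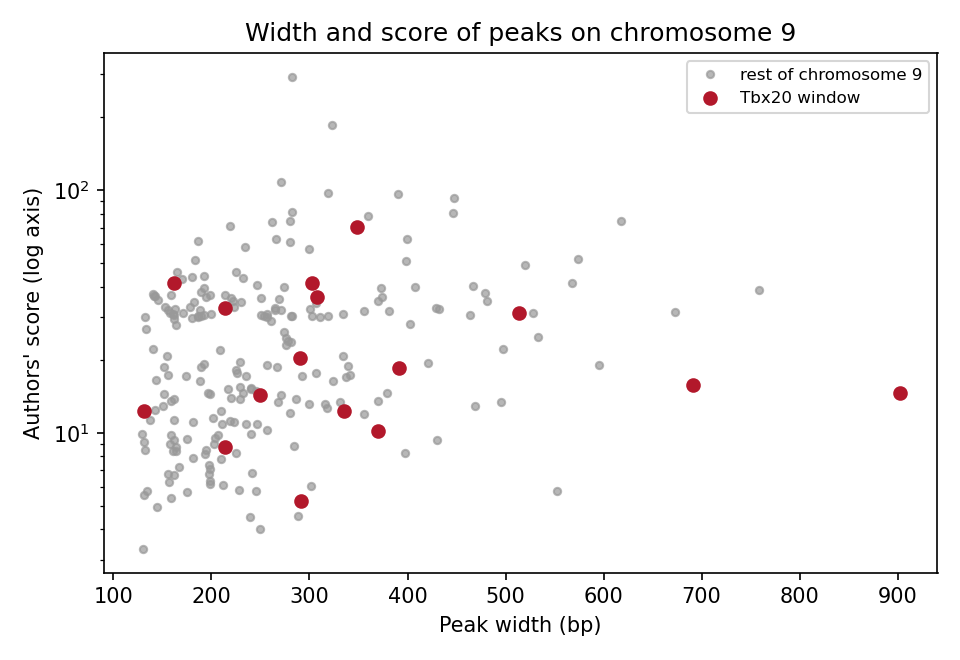
Width in bp (horizontal axis) and the authors' score (vertical log axis) of the 16 peaks of the Tbx20 window and the other 218 peaks of chromosome 9, 1 point per peak. The widest points of the locus, at 691 and 902 bp, have scores of 15.8 and 14.6, and its highest score of 70.8 is at 348 bp.

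Across the 16 peaks, width and score were nearly unrelated, with Spearman's rho = 0.03 and Pearson's r = -0.12, whereas over the other 218 rho was 0.30 and r was 0.22. These are descriptions across peaks of 1 library, which share their depth and their input, and a difference between them was not tested.

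Scores were also set beside a ceiling taken from the order of the deposited list. The ceiling of a peak is the highest score among it and all peaks listed after it, so no score can exceed its ceiling. Peaks whose score was less than 2% under that value are called at the ceiling. At the locus 5 of the 16 peaks were at the ceiling, against 36.1% of all peaks and 36.2% of the rest of chromosome 9, so this count was near the background. These were the peaks starting at 24545316 in the gene and at 24639792, 24664237, 24683564 and 24778672 upstream. One more, starting at 24666068, reached 87.0% of the ceiling. The other 10 lay at 16.2 to 50.8% of it, and the broad peak at the 5′ end was at 28.9%. Over the 16 the median was 46.2% of the ceiling, against 47.7% on the rest of the chromosome.

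Places in the list were spread as well, from 495 to 3769 of 4012, with a median of 2070.5, against 2052.5 for the rest of chromosome 9. Peaks close together on the chromosome could be far apart in the list. The pair 1.67 kb apart upstream of the gene stood at places 2058 and 3769, and the pair 1.76 kb apart in the group of 6 at places 1504 and 1107. The broad peak at the 5′ end came early, at place 978, although its score was only 14.6.

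**Figure D4:**
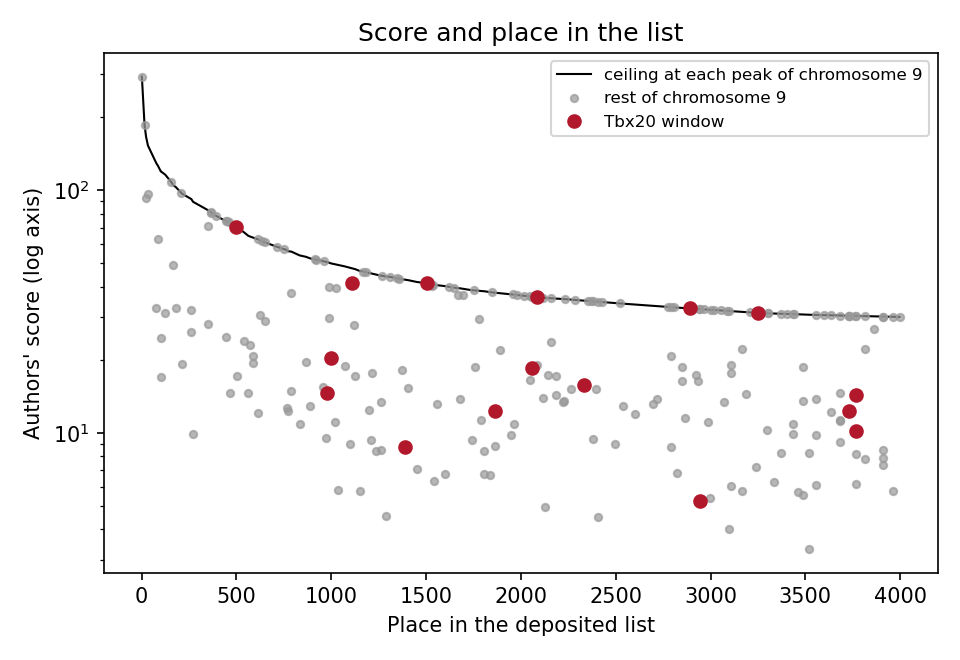
Place in the deposited list (horizontal axis) and the authors' score (vertical log axis) of the 16 peaks of the Tbx20 window and the other 218 of chromosome 9, with the ceiling as a line. Of the 16 peaks, 5 lie on the line and 11 below it, spread over the list from place 495 to 3769.

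The run of 29 peaks on chromosome 2 is the only one in the list longer than the 14 at Tbx20. Its peaks were broader, with a median of 602 bp against 305.5 bp, and their scores were lower, with a median of 4.23 against 15.2. None of the 29 lay at the ceiling, where 4 of the 14 at Tbx20 did, and the highest reached 25.4% of it. No remaining run held more than 6 peaks. In a run of 6 on chromosome 14, the median width was 328 bp and the median score 23.6, with 1 peak at the ceiling. The median percent of the ceiling was 46.2% at Tbx20, 64.9% on chromosome 14 and 8.59% on chromosome 2. By medians of width, score and percent of the ceiling, the run at Tbx20 thus lay nearer to the run on chromosome 14. By span it lay nearer to the run on chromosome 2, with 182 kb against 152 kb there and 36.4 kb on chromosome 14. These are values of 1 library, and the differences between the runs were not tested.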

How the data were processed

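The series holds 1 immunoprecipitate of GFP-tagged Tbx20 and 3 inputs, grouped by title. The deposited list gives the peaks that QuEST, a peak caller, accepted for the immunoprecipitate. Per the note deposited with it, the score of each peak is a normalized read number, from QuEST's field ef. That field is commonly an enrichment over background, so the scale of the score is unsettled, and it is used only to describe and rank peaks within the list. The submitters' processing notes name mm9 as the build. How reads were aligned and filtered, how inputs were used and which thresholds applied is not given in the sources used here. The inputs have no values used here, and depth is unknown.

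Members were taken by midpoint from the window given above. They and the comparisons were chosen with earlier results of these data known, and no test was run. All members and the 2 nearest peaks outside on each side are named, with Tbx20 and the 3 protein-coding genes on each side. Medians, counts in windows, runs (gaps of at most 50 kb) and the ceiling were computed with Python 3.11.15. The packages were numpy 2.4.6, pandas 2.3.3 and scipy 1.17.1. The number of members, the longest run and the nearest distances were tested on simulated data with 20 lists of planted peaks. Merging and the ceiling were checked on a small made-up list only, and medians and counts in other windows were not tested in this way. Promoter sequence and gene order come from RefSeq tables on GRCm38.p6, and Tbx20 matched 1 entry. Alternatives merged close peaks, kept part of the list, changed the window, changed the gap or counted other windows.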

Additional observations from a re-analysis of the deposited data

How the results depend on the processing

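Keeping 2006 of the 4012 peaks lowers counts by construction. Among the better-scoring 2006, 6 of the 16 peaks were left, against 106 of the other 218 on chromosome 9, with a median score of 38.7 and a longest run of 4. Among the first 2006 listed, 7 of the 16 were left, against 106 of the 218, with a longest run of 5. These differences in share were not tested. With gaps of at most 20 kb the longest run held 6 peaks, and with 100 kb all 16. Merging peaks within 500 bp left the number, median score, median width and longest run of the locus as they were. Values of the rest of chromosome 9, where the closest neighbours were 0.415 kb apart, are not given after merging. The window widened by 100 kb on each side held 17 peaks and narrowed by as much 14, with a longest run of 14 in each. The median width was 303 to 305.5 bp under these alternatives. Among windows that did not touch the locus, the highest count was 5 with tiled or peak-centred windows of chromosome 9 and 29 with tiled windows of all autosomes. No paired analysis was possible because there is 1 immunoprecipitate and no test, and no replicate could be left out.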
